A study of Homo sapiens with 10 samples.

Results

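The clustered protocadherins are 54 of the 42335 gene symbols measured by RNA sequencing in 10 samples of H9, a human embryonic stem cell line, during neural differentiation. They were chosen by symbol alone, as PCDHA, PCDHB, PCDHGA, PCDHGB or PCDHGC with a number or a C and a number, and 5 symbols ending in P were left out. The set holds 16 genes of the alpha cluster, 16 of the beta cluster and 22 of the gamma cluster, and 53 of them are protein coding. PCDHA14 fits the symbols but is annotated as a transcribed pseudogene. On GRCh38 the genes lie on the plus strand of chromosome 5, at chr5:140786136-141012347 (alpha), chr5:141051135-141249365 (beta) and chr5:141330571-141512981 (gamma).

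The genotype SOX1-OT V1 PAKI (V1PAKI) and wild-type H9 (Ctrl) were each sampled once at d0, d4, d10, d16D and d16V, giving 5 libraries a line. Per the labels, d0 samples are embryonic stem cells and later samples are neural progenitor cells derived from them, while PAKI and the final letters of the day 16 names are not explained. Cells grew as suspended embryoid bodies and received neural medium from day 4, and Sonic hedgehog with the pathway agonist SAG was added from day 10 where ventral telencephalon was the aim. Each genotype is 1 line, and whether V1PAKI is 1 clone is not given in the sources used here. SOX1-OT, the noncoding gene named in the genotype, was measured at 0.212 FPKM for V1PAKI against 1.87 for Ctrl at d16D, and at 1.22 for V1PAKI against 3.51 for Ctrl at d16V. It lay at or below 0.0513 FPKM in all 6 libraries of d0 to d10, too low to compare the lines there. FPKM (fragments scaled by transcript length and by the mapped total of the library) summed to 200509 to 256270 per library.

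Clustered protocadherins are adhesion proteins of the cadherin superfamily, best known from neurons, where a cell uses a few of the many variable promoters, largely by chance, and so carries a surface identity that lets its branches recognise and avoid each other. The factor CTCF and the cohesin ring loop distant enhancers to the promoters, and DNA methylation keeps unused promoters silent. In the alpha and gamma clusters each variable exon, which encodes the outer part of the protein, is spliced to constant exons shared by the cluster, whereas each beta gene is a single exon. The C-type genes PCDHAC1, PCDHAC2, PCDHGC3, PCDHGC4 and PCDHGC5 stand at the ends of the alpha and gamma clusters and are used more steadily than the others. The libraries are bulk RNA, so choice in single cells is not visible, and fewer cells of a type cannot be told apart from less RNA per cell.

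The shared exons are shown because they limit what an alpha or gamma value measures. The first one is the same stretch in 15 alpha genes and a different stretch in 22 gamma genes, and the 2 stretches, taken from GENCODE v29 transcripts on GRCh38, are the same at 39 of 59 bases.

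alpha shared exon (chr5:140978949-140979007, plus strand): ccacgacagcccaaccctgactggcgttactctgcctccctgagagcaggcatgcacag
gamma shared exon (chr5:141494807-141494865, plus strand): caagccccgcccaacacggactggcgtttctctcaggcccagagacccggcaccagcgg

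In GENCODE v29, 21.3% to 100% of the exonic bases of an alpha gene and 27.6% to 64.4% of those of a gamma gene were shared with another member, against 0 in every beta gene. The 100% is the pseudogene PCDHA14, and the highest value of a coding alpha gene is 56.6%, for PCDHA2. Reads from shared bases cannot be assigned to 1 gene, so alpha and gamma values are uncertain in how they split between neighbours. Beta genes have no such shared bases, but likeness of sequence between separate genes was not measured.

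The promoters are shown because the variable promoters are known for a conserved element around CGCT, which CTCF binds. Each line gives 16 bases before and 14 after a match to a longer form of the element (capitals), for genes described below. The lines are read 5′ to 3′ from RefSeq promoters of GRCh38.p14. A match by sequence alone does not show that a promoter holds the conserved element. The first set is from the alpha cluster, with TGTCGCT.

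PCDHA4 (chr5:140806976-140807012, plus strand): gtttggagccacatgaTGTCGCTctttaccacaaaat
PCDHA6 (chr5:140827894-140827930, plus strand): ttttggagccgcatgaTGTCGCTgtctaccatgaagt
PCDHA10 (chr5:140855838-140855874, plus strand): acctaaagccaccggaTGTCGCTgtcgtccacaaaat
PCDHA11 (chr5:140868880-140868916, plus strand): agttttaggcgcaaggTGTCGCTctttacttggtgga
PCDHA12 (chr5:140875241-140875277, plus strand): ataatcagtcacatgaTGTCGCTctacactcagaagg

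The second set is from the beta cluster, with GTGGCGCT.

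PCDHB2 (chr5:141094540-141094577, plus strand): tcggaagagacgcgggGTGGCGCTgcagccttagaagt
PCDHB5 (chr5:141135175-141135212, plus strand): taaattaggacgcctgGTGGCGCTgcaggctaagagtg
PCDHB16 (chr5:141182306-141182343, plus strand): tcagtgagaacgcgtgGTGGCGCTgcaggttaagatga
PCDHB10 (chr5:141192295-141192332, plus strand): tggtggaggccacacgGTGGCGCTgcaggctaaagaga
PCDHB14 (chr5:141223259-141223296, plus strand): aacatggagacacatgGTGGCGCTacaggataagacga
PCDHB15 (chr5:141245310-141245347, plus strand): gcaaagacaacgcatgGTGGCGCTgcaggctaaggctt

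The third set is from the gamma cluster, with GNGNCGCT, where N is any base.

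PCDHGB4 (chr5:141387613-141387650, plus strand): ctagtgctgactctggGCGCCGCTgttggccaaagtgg
PCDHGB6 (chr5:141407920-141407957, plus strand): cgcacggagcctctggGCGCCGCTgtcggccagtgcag
PCDHGA10 (chr5:141412927-141412964, plus strand): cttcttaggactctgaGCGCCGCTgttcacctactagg
PCDHGC3 (chr5:141475876-141475913, plus strand): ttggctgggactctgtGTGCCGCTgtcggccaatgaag
PCDHGC4 (chr5:141484948-141484985, plus strand): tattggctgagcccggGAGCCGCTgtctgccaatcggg

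The table held promoters of 47 of the 54 members, searched on both strands from 250 bases before to 50 after the start. TGTCGCT stood in 10 of 13 alpha promoters, 1 of 14 beta promoters and 3 of 20 gamma promoters, and in 1.76% of all 35116 promoters. GTGGCGCT stood in 13 of 14 beta promoters, in 0 of 13 alpha and 0 of 20 gamma promoters, and in 1.15% of all. GNGNCGCT stood in 19 of 20 gamma promoters, in 14 of 14 beta and 1 of 13 alpha promoters, and in 19.9% of all. The 3 forms contain CGCT and overlap it, GTGGCGCT is itself a case of GNGNCGCT, and all were written down after the promoters were read, so their shares describe these promoters and show no binding. CGCT alone stood in 70.0% of all promoters. The match began a median of 54.5 bases before the start in alpha promoters, 65 in beta promoters and 66 in gamma promoters. Where a promoter held more than 1 match, the match nearest a fixed position within the span of these medians was taken. That choice draws the medians towards it, so their likeness between clusters is no result.

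Mean levels over the 10 libraries ran from 0.0199 FPKM for PCDHB1 to 10.4 FPKM for PCDHB2, with a median of 0.811. Most members were therefore low: 17 stayed below 1 FPKM in every library, and 11 were at 1 FPKM or more in all 10. In the gamma A class 6 of 12 genes stayed below 1 FPKM everywhere, against 0 of 7 in gamma B, 7 of 14 among variable alpha genes, 3 of 16 in beta and 1 of 5 among C-type genes. PCDHB2 was the highest member in 8 libraries and PCDHB5 in the other 2, V1PAKI at d0 and d10. The 3 leading genes of a library held 26.8% to 36.3% of the summed FPKM of the 54 genes. The number of members at 1 FPKM or more was 15 to 16 at d0, 13 to 18 at d4, 19 in both lines at d10, 18 to 24 at d16D and 26 to 31 at d16V.

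**Figure D1:**
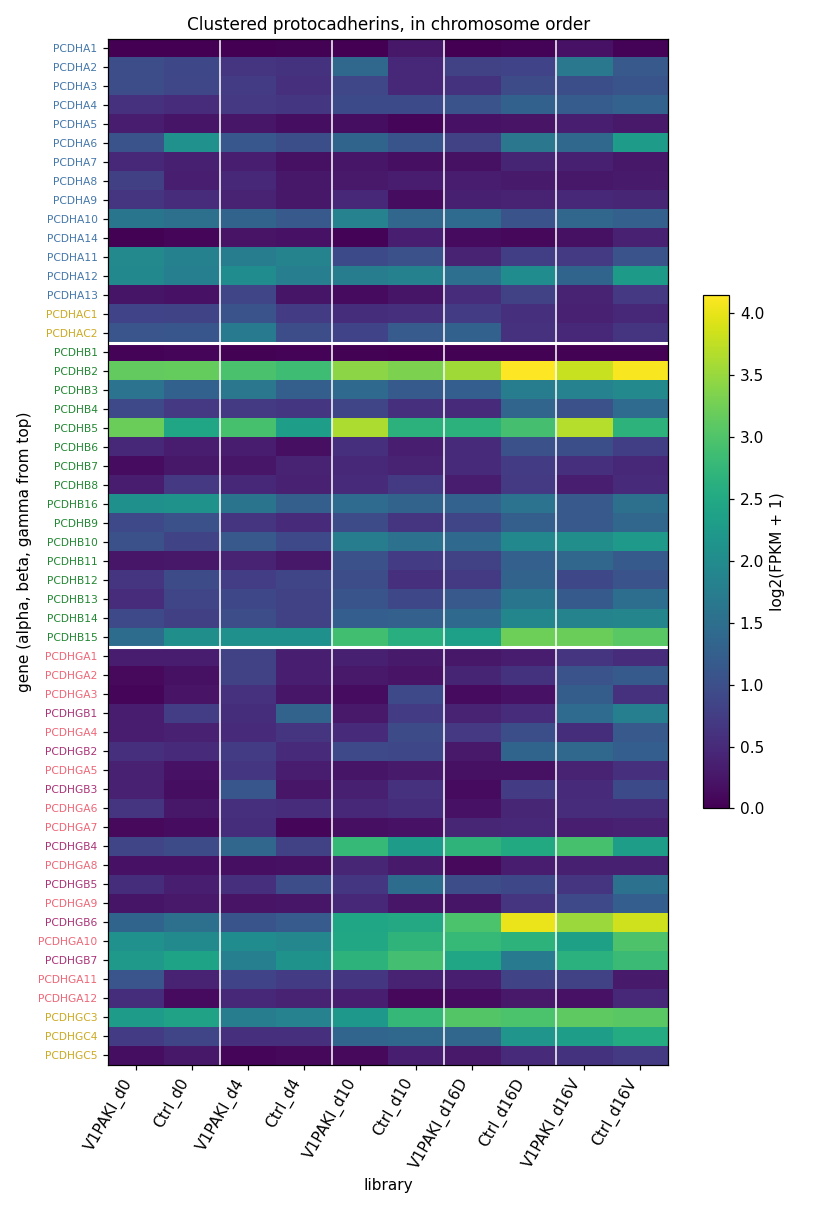
Level of each of the 54 genes as log2(FPKM + 1) (colour) by library, with genes down the page in genome order and V1PAKI left of Ctrl at each stage. A few beta and gamma genes, PCDHB2, PCDHB5, PCDHB15, PCDHGB6 and PCDHGC3 among them, have the highest means and together hold 32.7% to 48.3% of the summed FPKM of a library, and PCDHB1 and PCDHA1 stay near 0.

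The rank order of the 54 levels was alike in all libraries. Spearman's rho between V1PAKI and Ctrl at the same stage was 0.838 to 0.913 (median 0.894, 5 pairs), and between stages of the same line 0.649 to 0.899 (median 0.804, 20 pairs). These are descriptions across genes that share exons and a chromosome, not across independent samples. Along the chromosome, levels of the 7 gamma B genes had a rho of 0.79 with their order over all libraries, but 0.43 in the day 16 libraries and 0.57 in the d0 libraries. Over all libraries rho was 0.38 for 13 variable alpha genes, 0.12 for 16 beta genes and -0.02 for 12 gamma A genes, the last at -0.24 in the day 16 libraries and 0.42 in the d0 libraries. C-type promoters held a median of 20.5 CpG pairs in their 300 bases (15 to 27, 4 genes). Medians were lower in variable alpha (7), beta (7.5), gamma A (5) and gamma B (11) promoters. The gamma B range, 7 to 16, overlapped that of the C-type genes. Across the 47 members with a promoter, the CpG count had a rho of 0.45 with the mean level and 0.06 with the change by day 16, but the classes had unlike values. With the level rho was 0.67 in variable alpha, 0.08 in beta, -0.22 in gamma A, 0.82 in gamma B and -0.40 in C-type genes. With the change it was -0.45, -0.07, -0.44, 0.75 and 0.40 in the same order of classes.

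The clusters differed in their course. In V1PAKI the summed gamma genes stood at 18.9, 19.3, 30.8, 35.8 and 49.6 FPKM at d0, d4, d10, d16D and d16V, and in Ctrl at 18.8, 17.8, 35.8, 46.4 and 56.9 FPKM. The beta genes summed to 28.7, 26.9, 40.7, 31.3 and 50.3 FPKM in V1PAKI, and to 26.6, 21.4, 29.9, 51.8 and 49.3 FPKM in Ctrl. The alpha genes summed to 15.3, 15.4, 13.0, 10.5 and 12.3 FPKM in V1PAKI, and to 15.6, 11.4, 10.9, 13.0 and 16.8 FPKM in Ctrl. Gamma sums of all 4 day 16 libraries were above both d0 libraries, beta sums too, while alpha sums overlapped between the stages. Relative to d0, the mean of the day 16 arms was higher by 1.32 ± 0.20 on the log2 scale for gamma, higher by 0.72 ± 0.30 for beta, and stood at -0.25 ± 0.26 for alpha (mean ± SD of the 2 lines). The alpha share of the summed FPKM was 10.9% to 13.7% in the day 16 libraries, against 24.3% to 25.6% at d0, and the gamma share 41.8% to 46.2%, against 30.0% to 30.8%.

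**Figure D2:**
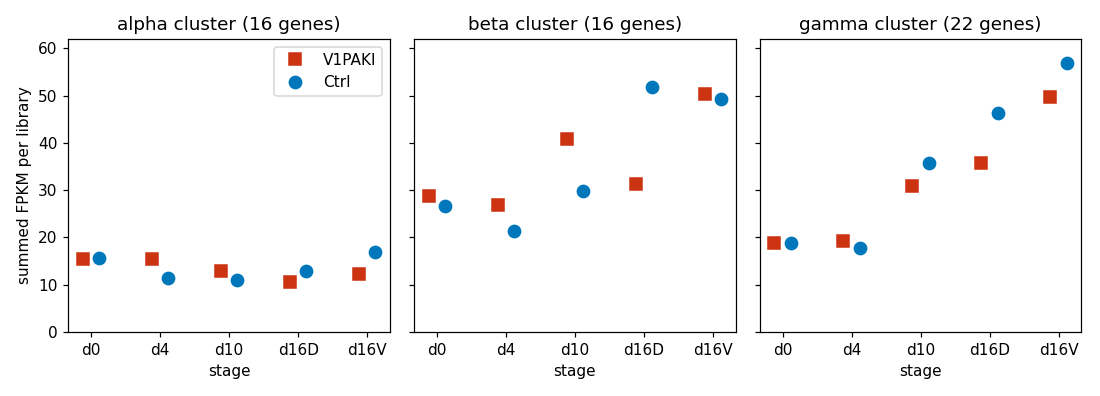
Summed FPKM per library of the alpha, beta and gamma clusters (panels) by stage, with V1PAKI as squares and Ctrl as circles. Gamma sums are 35.8 to 56.9 at day 16, against 18.8 to 18.9 at d0, alpha sums stay between 10.5 and 16.8, and the widest gap between the lines is in beta at d16D, at 31.3 in V1PAKI and 51.8 in Ctrl.

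By day 16, 13 members had risen and 2 had fallen relative to d0 among the 29 tested. The rises lay in beta, gamma A, gamma B and C-type genes and, through PCDHA4 alone, in variable alpha genes. The risers were the gamma genes PCDHGB6, PCDHGB4, PCDHGC4, PCDHGC3, PCDHGA2 and PCDHGA10, the beta genes PCDHB15, PCDHB10, PCDHB14, PCDHB11, PCDHB2 and PCDHB13, and the alpha gene PCDHA4. PCDHA11 and PCDHB16 fell. Over all 15779 genes tested the same test called 17.4% higher and 15.1% lower, or 32.4% in both directions (without adjustment, at p below 0.05, 14 members were higher and 2 lower, against 24.2% and 20.3% of all genes). The test was limma on log2(FPKM + 1), with stage and genotype as terms, on genes with 1 FPKM or more in at least 2 libraries, with p-values adjusted by Benjamini-Hochberg over all genes and a threshold of 0.05. Its spread is how far the 2 lines differ in their stage changes, so p-values measure that spread and not repeated cultures, and the 2 day 16 arms of a line may share a culture. Of the 54 members 25 did not pass the filter and were not tested, and 11 of the 29 passed it only through day 16, where they are highest. Those 11 include 4 of the 13 risers (PCDHA4, PCDHB11, PCDHB13 and PCDHGA2). Neither the count of tested members nor its spread over the classes therefore supports anything by itself. The median change was 0.53 over the 29 members, those 11 included, and 0.07 over all genes tested.

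PCDHGB6, a variable gene late in the gamma cluster, stood in V1PAKI at 1.53, 1.12, 4.43, 6.88 and 10.5 FPKM at d0, d4, d10, d16D and d16V, and in Ctrl at 1.89, 1.28, 4.68, 15.2 and 13.4 FPKM. Each line was low at d0 and d4, and all 4 day 16 libraries were above all 6 earlier ones. It rose by 2.16 on the log2 scale (SE 0.23, limma adjusted p = 0.000966), and the day 16 mean was 5.68 times the d0 level in V1PAKI and 7.57 times in Ctrl. PCDHGB4, another gamma B gene, stood at 0.814, 1.58, 5.82, 5.45 and 6.70 FPKM in V1PAKI, and at 0.932, 0.763, 3.81, 4.74 and 3.94 FPKM in Ctrl. At d10 both lines were already near their day 16 levels. It rose by 1.71 by day 16 (SE 0.20, limma adjusted p = 0.00142). Of its exonic bases 64.4% were shared with another member, the most of any gamma gene, so its value is uncertain in the way given above.

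The C-type genes had unlike courses. PCDHGC4, which in mice is needed for the survival of cortical interneurons, stood at 0.653, 0.475, 1.56, 1.59 and 3.97 FPKM in V1PAKI, and at 0.831, 0.485, 1.64, 3.49 and 4.83 FPKM in Ctrl. All 4 day 16 libraries were above both d0 libraries, with V1PAKI at d16D the lowest of them. Its rise was 1.30 (SE 0.21, limma adjusted p = 0.00416). PCDHGC3, a C-type gene also used outside the nervous system, stood at 3.83, 2.37, 3.61, 7.21 and 7.71 FPKM in V1PAKI, and at 4.21, 2.57, 5.76, 6.83 and 7.48 FPKM in Ctrl. The 4 day 16 libraries lay close together and above every earlier library. It rose by 0.73 (SE 0.19, limma adjusted p = 0.0227). PCDHGC5 stayed below 1 FPKM, at 0.109, 0.0397, 0.0789, 0.210 and 0.524 in V1PAKI, and at 0.204, 0.0617, 0.267, 0.424 and 0.631 in Ctrl, and was not tested. PCDHAC2, known in mice from the spacing of serotonergic axons, stood at 1.14, 2.24, 0.787, 1.44 and 0.387 FPKM in V1PAKI, and at 1.16, 0.968, 1.29, 0.502 and 0.534 FPKM in Ctrl, and the stages overlapped. Its change by day 16 was -0.36 and missed the threshold (limma adjusted p = 0.330). PCDHAC1 stood at 0.787, 1.08, 0.451, 0.646 and 0.299 FPKM in V1PAKI, and at 0.800, 0.664, 0.487, 0.494 and 0.394 FPKM in Ctrl. It was highest at d0 and d4 and was not tested.

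**Figure D3:**
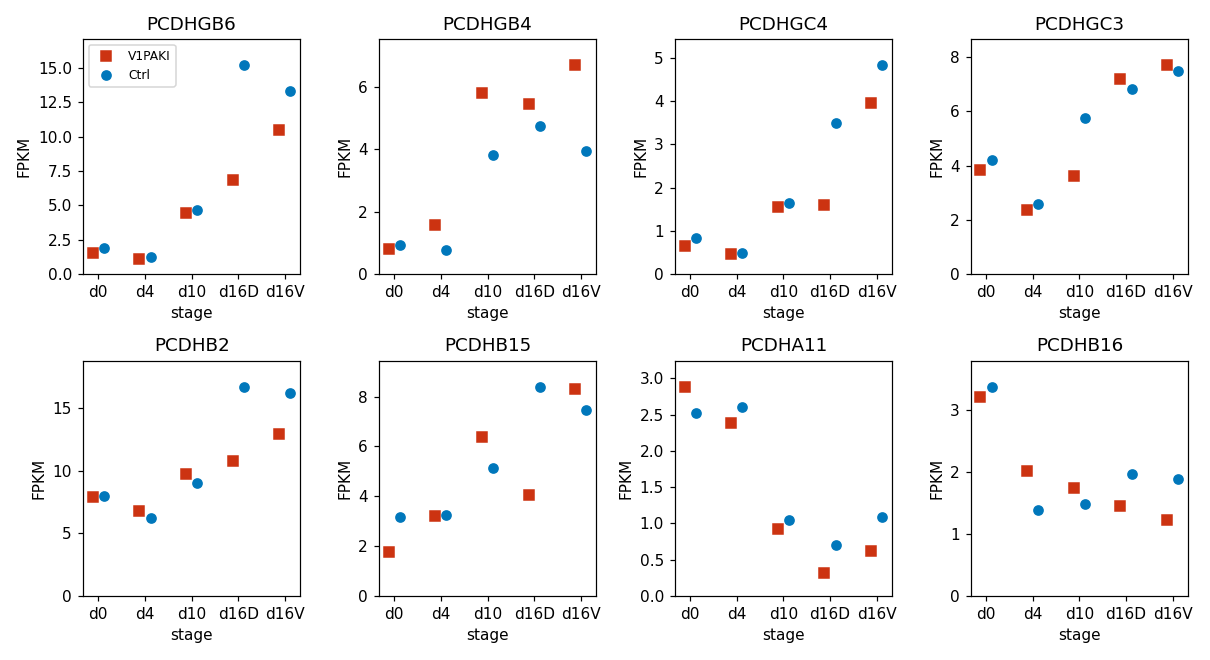
FPKM of 8 members (panels) by stage, 1 point per library, with V1PAKI as squares and Ctrl as circles, each panel on its own scale from 0. PCDHGB6, PCDHGB4, PCDHGC4 and PCDHGC3 are highest at d10 or day 16, and PCDHA11 is at 0.322 to 1.09 at day 16, against 2.52 to 2.89 at d0.

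Of the other gamma genes, PCDHGA10, the highest gamma A gene, stood at 3.29, 3.07, 4.62, 5.86 and 4.11 FPKM in V1PAKI, and at 2.91, 2.78, 5.46, 5.40 and 6.95 FPKM in Ctrl. It rose by 0.67 (SE 0.21, limma adjusted p = 0.0442). PCDHGA2 stood at 0.0720, 0.746, 0.210, 0.342 and 1.09 FPKM in V1PAKI, and at 0.132, 0.276, 0.161, 0.515 and 1.26 FPKM in Ctrl, so the 2 d16V libraries are the only ones above 1. Its rise was 0.68 (SE 0.19, limma adjusted p = 0.0312). PCDHGB7, the last gamma B gene, stood at 3.71, 2.47, 5.38, 4.45 and 5.26 FPKM in V1PAKI, and at 4.28, 3.38, 6.46, 2.22 and 6.06 FPKM in Ctrl, with no separation of day 16 from d0 (0.08, limma adjusted p = 0.819). The remaining tested gamma genes, PCDHGB1, PCDHGB2 and PCDHGB5, had changes of 0.50 to 0.57 that missed the threshold. The 12 untested gamma genes had means of 0.204 to 0.625 FPKM. The highest of them, PCDHGA4, stood at 0.256, 0.423, 0.418, 0.620 and 0.462 FPKM in V1PAKI, and at 0.307, 0.561, 0.960, 0.998 and 1.24 FPKM in Ctrl, with V1PAKI the lower at each stage. PCDHGA11 stood at 1.12, 0.789, 0.574, 0.272 and 0.734 FPKM in V1PAKI, and at 0.311, 0.668, 0.325, 0.804 and 0.226 FPKM in Ctrl, and V1PAKI was the higher of the pair except at d16D.

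Among beta genes, whose values rest on single exons of their own, PCDHB2 was the most abundant. It stood at 7.90, 6.79, 9.71, 10.8 and 12.9 FPKM in V1PAKI, and at 7.99, 6.24, 9.01, 16.7 and 16.2 FPKM in Ctrl. All 4 day 16 libraries were above all earlier ones, and it rose by 0.74 (SE 0.20, limma adjusted p = 0.0259). PCDHB15, the last beta gene, stood at 1.76, 3.22, 6.38, 4.04 and 8.29 FPKM in V1PAKI, and at 3.18, 3.25, 5.12, 8.40 and 7.47 FPKM in Ctrl. Its rise was 1.20 (SE 0.27, limma adjusted p = 0.0137). PCDHB10 stood at 1.04, 1.23, 2.37, 1.67 and 3.12 FPKM in V1PAKI, and at 0.807, 0.878, 1.97, 2.81 and 3.75 FPKM in Ctrl. PCDHB14 stood at 0.885, 0.970, 1.35, 1.67 and 2.63 FPKM in V1PAKI, and at 0.716, 0.734, 1.40, 2.75 and 2.70 FPKM in Ctrl. Both genes were higher in every day 16 library than in either d0 library, by 0.97 (SE 0.21, limma adjusted p = 0.0125) for PCDHB10 and 0.92 (SE 0.19, limma adjusted p = 0.0112) for PCDHB14.

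PCDHB11 stood at 0.185, 0.313, 1.04, 0.753 and 1.59 FPKM in V1PAKI, and at 0.199, 0.207, 0.650, 1.42 and 1.25 FPKM in Ctrl. PCDHB13 stood at 0.442, 0.857, 1.12, 1.24 and 1.25 FPKM in V1PAKI, and at 0.823, 0.737, 0.858, 2.05 and 1.82 FPKM in Ctrl. They rose by 0.90 (SE 0.20, limma adjusted p = 0.0145) and by 0.66 (SE 0.20, limma adjusted p = 0.0389), and in both the 4 day 16 libraries lay above the 2 d0 libraries. PCDHB16 went the other way, at 3.21, 2.01, 1.74, 1.46 and 1.22 FPKM in V1PAKI, and 3.38, 1.39, 1.49, 1.98 and 1.89 FPKM in Ctrl. Both d0 libraries were above all 8 later ones, and it fell by 0.71 (SE 0.20, limma adjusted p = 0.0308). PCDHB5, the second most abundant member, had a change of 0.17 (limma adjusted p = 0.661).

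Alpha genes were the most mixed. PCDHA11 stood at 2.89, 2.38, 0.917, 0.322 and 0.622 FPKM in V1PAKI, and at 2.52, 2.61, 1.04, 0.706 and 1.09 FPKM in Ctrl. The 4 libraries of d0 and d4 were above the 6 later ones, and it fell by 1.15 (SE 0.18, limma adjusted p = 0.00398). PCDHA4 stood at 0.504, 0.611, 0.903, 1.09 and 1.30 FPKM in V1PAKI, and at 0.439, 0.572, 0.908, 1.45 and 1.48 FPKM in Ctrl, and rose by 0.66 (SE 0.16, limma adjusted p = 0.0203). PCDHA12, the alpha gene with the highest mean, stood at 2.81, 3.07, 2.34, 1.86 and 1.52 FPKM in V1PAKI, and at 2.44, 2.42, 2.54, 3.02 and 3.80 FPKM in Ctrl. The lines stood close at the earlier stages, and V1PAKI was the lower one at day 16, and the mean change over both was -0.08 (limma adjusted p = 0.848). PCDHA10 stood at 2.04, 1.49, 2.57, 1.74 and 1.59 FPKM in V1PAKI, and at 1.88, 1.22, 1.58, 1.09 and 1.42 FPKM in Ctrl, a change of -0.27 by day 16 (limma adjusted p = 0.259).

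**Figure D4:**
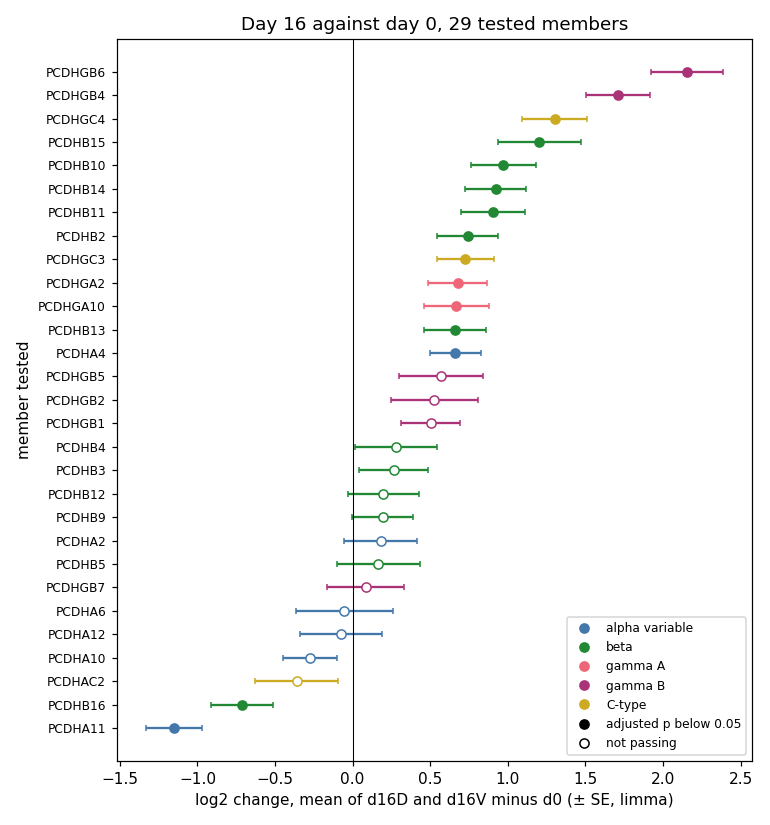
Log2 change of the 29 tested members, mean of the day 16 arms minus d0, with bars for the standard error of the limma fit and filled points for members past the adjusted p threshold. PCDHGB6 and PCDHGB4 have the largest changes (2.16 and 1.71), and PCDHA11 and PCDHB16 are the 2 members that fell.

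Without a filter the 54 members can be counted by direction. At day 16 the mean of the arms was higher than d0 in both lines for 31 of 54 members (57.4%) and lower in both for 10 (18.5%). Of 24739 genes listed at 0 in no more than 2 libraries, as all members are, 44.8% were higher and 31.6% were lower. Among gamma A genes 8 of 12 were higher and 0 lower, among gamma B genes 5 of 7 and 0, among beta genes 10 of 16 and 3, among C-type genes 3 of 5 and 2, and among variable alpha genes 5 of 14 and 5. Among the 29 tested, to which the filter does apply, the 4 day 16 libraries were all above both d0 libraries for 14 (30.0% of all genes tested) and all below for 3 (27.9% of all genes tested). Of these 14, PCDHA4, PCDHB11, PCDHB13, PCDHGA2 and PCDHGB5 passed the filter only through day 16, so the count supports nothing by itself.

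The count of 15 calls depended on single libraries and on the arm. The calls over all genes tested, 5114 in the main fit, were also fewer in each setting named next. With 1 arm set against d0 the calls over all genes were 3564 for d16D and 3747 for d16V. They thus differed little between the arms, unlike the member counts of 6 for d16D and 14 for d16V. Why the member counts differ between the arms was not tested. With single libraries left out, the member count was 3 without Ctrl at d0 and 6 without V1PAKI at d0. It was 7 without V1PAKI at d16V, 8 without Ctrl at d16V and 9 without Ctrl at d4. PCDHGB6, PCDHGB4 and PCDHA11 passed with each of the 10 libraries left out in turn, and no call changed sign.

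Between neighbouring stages few members passed the test. From d4 to d10 PCDHGB4 was the 1 member past the threshold, higher at d10 by 1.43 (SE 0.24, limma adjusted p = 0.0395), when 0.919% of all genes tested were called higher and 0.520% lower (1.44% in both directions). Its d10 levels were 5.82 FPKM for V1PAKI and 3.81 for Ctrl, against 1.58 for V1PAKI and 0.763 for Ctrl at d4. The call was lost without any 1 of the 8 libraries of d0, d4, d10 and d16V. PCDHGB6 was higher by 1.34 and missed the threshold (limma adjusted p = 0.0622). Without adjustment 7 members were higher and PCDHA11 was lower at d10 (7.81% and 7.38% of all genes).

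No member passed between d4 and d0, when limma called 0.507% of all genes higher and 0.311% lower (0.818% in both directions). Without adjustment, at p below 0.05, 0 members were higher and PCDHB16 and PCDHGC3 were lower at d4 (6.26% and 5.59% of all genes). None passed between d16D and d10 (0.551% higher and 0.380% lower among all genes, 0.932% in both directions), with PCDHGB6 and PCDHGC3 higher and PCDHGB7 lower unadjusted (9.49% and 7.48%). None passed between d16V and d10 (0.520% and 0.292%, or 0.811% in both directions), with 8 members higher and 0 lower unadjusted (10.9% and 9.02%). None passed between the arms, d16V against d16D (0.196% and 0.165%, or 0.361% in both directions), with 4 higher and 0 lower unadjusted (2.55% and 2.79%). The widest difference between the arms was that of PCDHGB1, at 1.73 FPKM in V1PAKI and 2.47 in Ctrl at d16V, against 0.334 in V1PAKI and 0.433 in Ctrl at d16D (1.15, SE 0.22, limma adjusted p = 0.128). PCDHGB1 and PCDHGA2, both highest at d16V, passed the filter only through day 16. Both are among the 8 members higher than d10 and the 4 higher than d16D without adjustment, so those counts support nothing by themselves.

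No clustered protocadherin passed the threshold between V1PAKI and Ctrl over the 5 stages by the limma test, in which 0.0% of all genes were higher and 0.019% were lower at the adjusted threshold. Without adjustment, at p below 0.05, PCDHB5 and PCDHGB4 were higher and PCDHGB1 was lower, against 1.02% and 1.45% of all genes. PCDHB5 stood in V1PAKI at 8.25, 6.63, 11.4, 5.36 and 11.8 FPKM, and in Ctrl at 4.40, 3.97, 5.36, 6.56 and 5.43 FPKM. At d16D V1PAKI was below its pair, and at the other 4 stages it was above every Ctrl value. The difference was 0.62 (SE 0.20, limma adjusted p = 1.00). PCDHGB4 differed by 0.35 (SE 0.15) and PCDHA2 by 0.30 (SE 0.17).

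PCDHGB1 stood in V1PAKI at 0.255, 0.452, 0.221, 0.334 and 1.73 FPKM, and in Ctrl at 0.689, 1.50, 0.670, 0.433 and 2.47 FPKM. V1PAKI was the lower of the pair at each of the 5 stages (-0.42, SE 0.14, limma adjusted p = 1.00). PCDHA6 stood in V1PAKI at 1.09, 1.19, 1.52, 0.743 and 1.64 FPKM, and in Ctrl at 3.29, 0.985, 1.10, 2.11 and 3.81 FPKM, and V1PAKI was lower at d0 and day 16 and higher at d4 and d10 (-0.47, SE 0.23). PCDHGB5 stood in V1PAKI at 0.456, 0.484, 0.573, 0.971 and 0.535 FPKM, and in Ctrl at 0.268, 0.970, 1.77, 0.869 and 1.92 FPKM (-0.37, SE 0.20). PCDHA2 stood in V1PAKI at 0.966, 0.546, 1.62, 0.767 and 2.16 FPKM, and in Ctrl at 0.866, 0.518, 0.394, 0.776 and 1.24 FPKM. The tested members that kept 1 direction at all 5 stages were PCDHGB1, PCDHGB6 and PCDHGC4, lower in V1PAKI, and PCDHA10, higher in V1PAKI, when 2.60% and 1.67% of all genes tested did so.

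At single stages, the count of members lower in V1PAKI was highest at d16D. There V1PAKI was lower for 43 of 54 members (79.6%), among them all 16 beta genes, against 56.3% of the 24739 genes. At d16V it was lower for 36 of 54 (66.7%), against 63.2%, at d10 for 25 (46.3%), against 51.2%, at d4 for 16 (29.6%), against 59.0%, and at d0 for 27 of 54, against 37.9%. The gap to all genes was thus widest at d4, where it ran the other way. The median difference at d16D was -0.49 over the 25 members at 1 FPKM or more in either line, and -0.10 over all such genes. With 1 library per line these have no replicate check. Differences of 1 or more on the log2 scale were few. At d16D PCDHGB6 measured 6.88 FPKM for V1PAKI against 15.2 for Ctrl (-1.04), and PCDHGB2, another gamma B gene, 0.215 for V1PAKI against 1.53 for Ctrl (-1.06), where 3.46% of genes were lower and 5.50% higher by as much. At d0 PCDHA6 was lower in V1PAKI by that rule, with 0.820% of genes lower and 3.73% higher. No member passed it at d4 (0.797% of genes higher and 0.857% lower), d10 (3.78% and 7.45%) or d16V (0.412% and 2.49%).

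**Figure D5:**
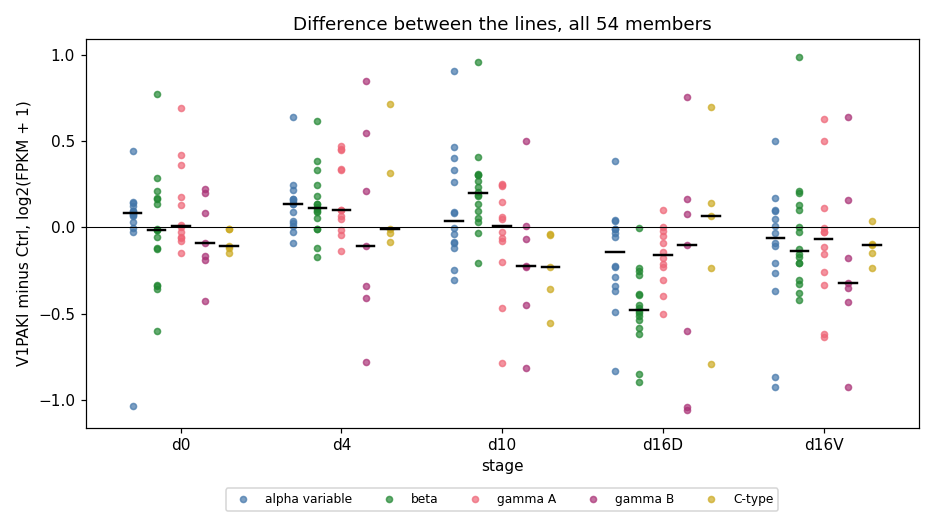
Difference between the lines, V1PAKI minus Ctrl as log2(FPKM + 1), by stage, 1 point per gene, with the 5 classes in separate colours and a black bar at the median of each class. All 16 beta genes are below 0 at d16D and 2 of 16 are below 0 at d10.

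Markers of other cell types differed between the same libraries. At d16D the 7 endoderm and liver markers summed to 2923 FPKM in V1PAKI and 517 in Ctrl, the 8 mesenchyme and muscle markers to 1128 in V1PAKI and 181 in Ctrl, and the 9 neuron markers to 103 in V1PAKI and 247 in Ctrl. At d16V the same lists summed to 12.2 and 11.5 FPKM in V1PAKI against 303 and 298 in Ctrl for endoderm and mesenchyme, and to 141 in V1PAKI against 165 in Ctrl for neuron. Across stages, the neuron markers summed to 51.1 in V1PAKI and 38.1 in Ctrl at d0. By limma 9 of 9 rose by day 16, with 8 of 8 neural progenitor, 6 of 7 endoderm and 3 of 8 mesenchyme markers. Over all genes tested 17.4% were called higher. In these lists ELAVL3, ELAVL4, NHLH1, SYT4, SOX1, HES5, SOX17, ALB and TWIST1 passed the filter only through day 16. The counts of rises therefore support nothing by themselves. All 7 pluripotency markers fell, to 203 and 264 FPKM summed in V1PAKI and 123 and 232 in Ctrl at d16D and d16V, against 1204 in V1PAKI and 1265 in Ctrl at d0. LIN28A was the largest part of these day 16 sums, at 116 and 212 in V1PAKI and 91.0 and 166 in Ctrl. POU5F1 was at 34.2 and 6.85 in V1PAKI and at 5.64 and 17.6 in Ctrl. Of the 4 day 16 libraries, V1PAKI at d16D was highest in POU5F1, NANOG, TDGF1, PRDM14 and L1TD1. V1PAKI at d16V was highest in LIN28A and DPPA4. The endoderm genes ALB, TTR and SOX17, the mesenchyme genes COL3A1, DCN and LUM and the neural genes PAX6 and HES5 were listed at 0 in both lines at d0. The part of these cells in the protocadherin values was not tested. The 3 ventral forebrain markers summed to 75.7 in V1PAKI and 106 in Ctrl at d16V, and to no more than 1.63 in the other libraries. The 3 dorsal forebrain markers summed to 59.4 in V1PAKI and 55.3 in Ctrl at d16D, and to 14.4 in V1PAKI and 16.9 in Ctrl at d16V. The like sums at d16D hide opposite differences. WNT8B was at 32.7 in V1PAKI and 12.9 in Ctrl, EMX2 at 12.3 in V1PAKI and 24.2 in Ctrl, and FEZF2 at 14.3 in V1PAKI and 18.2 in Ctrl.

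Of 21 genes that act on looping, silencing or DNA methylation, 20 were tested between day 16 and d0, 4 rose and 2 fell, a share near the 32.4% of all genes called. DNMT3B, a de novo DNA methyltransferase, stood in V1PAKI at 237, 470, 137, 37.7 and 39.9 FPKM, and in Ctrl at 400, 510, 173, 24.7 and 42.1 FPKM. It was lower in the 4 day 16 libraries than in any earlier one, and fell by 3.09 (SE 0.26, limma adjusted p = 0.000423). TET1, which removes DNA methylation, fell by 0.96 (limma adjusted p = 0.0401), while its relatives TET2 and TET3 rose by 1.03 and 0.77 (limma adjusted p = 0.00705 and 0.0113). Before day 16 TET2 reached 1 FPKM only in V1PAKI at d10 (1.09). It passed the filter only through day 16, so its call supports nothing by itself. The cohesin loader MAU2 rose by 0.86 (limma adjusted p = 0.0129) and the histone methyltransferase SETDB1 by 0.61 (limma adjusted p = 0.0415). CTCF lay between 8.16 and 11.7 FPKM in all 10 libraries. No gene of this list passed the adjusted threshold between V1PAKI and Ctrl.

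Protocadherins outside the clusters, each with its own gene, and the other 2 lists are set against the same 32.4%. Of 8 tested of 11, PCDH19, PCDH7, PCDH8 and PCDH17 rose by day 16 by 2.25, 1.64, 1.44 and 1.01 (limma adjusted p = 0.00649, 0.00472, 0.0139 and 0.0330), and PCDH1 fell by 2.06 (limma adjusted p = 0.000454). Before day 16 PCDH17 reached 1 FPKM only in Ctrl at d10 (1.74). It passed the filter only through day 16, so its call supports nothing by itself. Of 14 genes that process clustered protocadherins or act with their inner parts, the kinase FYN rose by 0.72 and the actin regulator WASF3 by 0.87, and NCKAP1 of the same actin complex fell by 0.87 (limma adjusted p = 0.0268, 0.0271 and 0.0497). Of 6 tested of 7 genes within or beside the clusters, DIAPH1 fell by 0.67 and RELL2 by 1.03 (limma adjusted p = 0.0200 and 0.0166), and none rose. None of these lists had a gene past the threshold between V1PAKI and Ctrl.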

How the data were processed

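The authors deposited FPKM values, made per the submitters' processing notes with cutadapt 1.18, HISAT2 2.1.0 and Cufflinks on GRCh38. Which annotation and strand setting they used is not given. No whole-read steps were visible among low values, so depth is unknown and no counting interval was computed. Each of the 10 columns carries the title of 1 sample, and no pair of columns was identical. Values were analysed as log2(FPKM + 1), which understates changes of low genes. After a filter of 1 FPKM or more in 2 or more libraries, 15779 genes entered 1 model of stage plus genotype in limma 3.58.1 (R 4.3.3; lmFit, eBayes with trend), which left 4 residual degrees of freedom (7.77 moderated). Tests were two-sided. The code was tested on simulated data. Alternatives were another pseudocount, other filters, other scalings, no genotype term and each library left out. Gene coordinates are from GENCODE v29, promoters from RefSeq on GRCh38.p14. Values in every library are given for members called, for the 3 highest of each class and for the 3 widest line differences each way. Members and lists were chosen with earlier results of these data known.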

Additional observations from a re-analysis of the deposited data

Results flagged for a closer look

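In 2 members the difference of d16D minus d10 had opposite signs in the lines, with at least 0.5 on the log2 scale each way. It was -0.53 in V1PAKI and 0.57 in Ctrl for PCDHA6, and -0.55 in V1PAKI and 0.62 in Ctrl for PCDHB15. With 1 library per line and stage the difference between the lines was not tested.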

How the results depend on the processing

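With 1 library per line and stage, every count rests on how far the lines part in their stage changes. The calls over all genes tested moved too. At day 16 against d0 they went from 5114 to 3959 with no filter and 3132 with a filter of 5 FPKM. At d10 against d4 they went from 227 to 3 and 171. The 15 calls at day 16 against d0 became 9 with no filter, 5 with a filter of 5 FPKM, which tests fewer genes, and 6 for d16D alone or 14 for d16V alone (alternatives chosen after seeing the data), and 3 to 15 with single libraries left out. The 1 call at d10 against d4 became 0 with no filter or with a filter of 5 FPKM, 2 with a pseudocount of 0.1, with values rescaled to TPM or with median-of-ratios scaling, and 0 to 2 with libraries left out. The 0 calls became up to 1 (0 to 1) for d16D against d10 and up to 3 (0 to 3) for d16V against d10, in both cases without a d16D library. The summed gamma ratio of day 16 over d0 was 1.53 with values rescaled to TPM. Apart from what the settings themselves remove, the cause was not tested. Over 275 settings of single members, 193 kept the call, 82 lost it and 0 changed sign. Median-of-ratios scaling moved libraries by -0.13 to 0.10 on the log2 scale. The lines were compared within stages, since stage is a term of the fit, and all replicate numbers are 1, so they add no pairing. Depth is unknown, so members near 0 cannot be called absent.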
